A study of Arabidopsis thaliana with 12 samples.

Results

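The 53 loci described here are annotated Arabidopsis thaliana loci of a non-coding RNA array whose leaf RNA signal was highest at 20 h or at 0 h of a 6-point time course. They were chosen from 306 loci that carry a chromosome locus code (AGI code, such as AT2G42388) not ending in 0, after 11 such codes had been set aside. For each locus the probe with the highest mean was used, and a locus was kept if its 6 time-point means in the deposited log2 series values spanned at least 1 log2 unit, if the highest mean lay at 0 h or 20 h, and if both arrays there were well above background. The range and the time of the highest mean therefore chose the loci and are given as a description without a test. Of the other loci, 39 met the same criteria with the highest mean at 4 or 8 h, 73 with the highest mean at 12 or 16 h, 130 had a range under 1, and 11 had the range but were not well above background at the highest time point. Just inside the limit were AT4G25719, with a range of 1.01, and AT1G29785, with 1.04, and just outside were AT2G06002 (0.997) and AT1G20515 (0.973), both highest at 20 h.

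Long non-coding RNAs are transcripts that are not translated into an extended protein, and many plant loci of this kind overlap a protein-coding gene in the opposite direction, as natural antisense transcripts, or lie between genes. In leaves a large share of the transcriptome follows the time of day, driven by the circadian clock and by light, and non-coding transcripts are known to take part in such rhythms. A few are known to act on neighbouring genes, while for most no role has been worked out, so the description below relies on their course over time and on the genes they overlap.

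The study compared leaves of wild-type Col-0 plants, the common laboratory accession, sampled at 0, 4 and 8 h under titles that name light and at 12, 16 and 20 h under titles that name dark, with 2 replicates per time point and 12 arrays in all. Every plant was 30 days of age and had been kept at 22 °C with 65% humidity, under 145 µmol of light per square metre and second for 8 h and darkness for 16 h per day; the series title speaks of continuous light instead, so what light the plants received is not settled here. Whether separate plants gave the 2 replicates of a time point is not in the labels, and every p-value below rests on the spread between these samples, which may be technical. In whole leaves, fewer cells of a type and less RNA per cell cannot be told apart.

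The 0 h and 4 h arrays lay on slide 1 and the 8, 12, 16 and 20 h arrays on slide 2. The second 16 h array stood apart. On it 52.2% of the 15013 probes were well above background, against 26.5 to 41.2% on the other 11, and the deposited values followed its scanner signal with a slope of 1.28 where the others had 0.956 to 1.02. Replicates correlated with r between 0.901 (16 h) and 0.978 (4 h) across transcripts. None of the 25 fixed marker genes of leaf and other tissues has a probe on this array, so the tissue label could not be checked with them. Of 12 clock genes 8 have one: LHY and CCA1, myb-related repressors of the core clock, had their highest mean at 8 h and their lowest at 20 h, while the pseudo-response regulators PRR7 and PRR9 were lowest at 0 h and highest at 12 h. Of the 8, 1 had its highest mean at 20 h and none at 0 h. The hours used here are those of the sample titles. How they stand to dawn and dusk was not tested, so 20 h and 0 h are not read as late night and dawn.

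**Figure D1:**
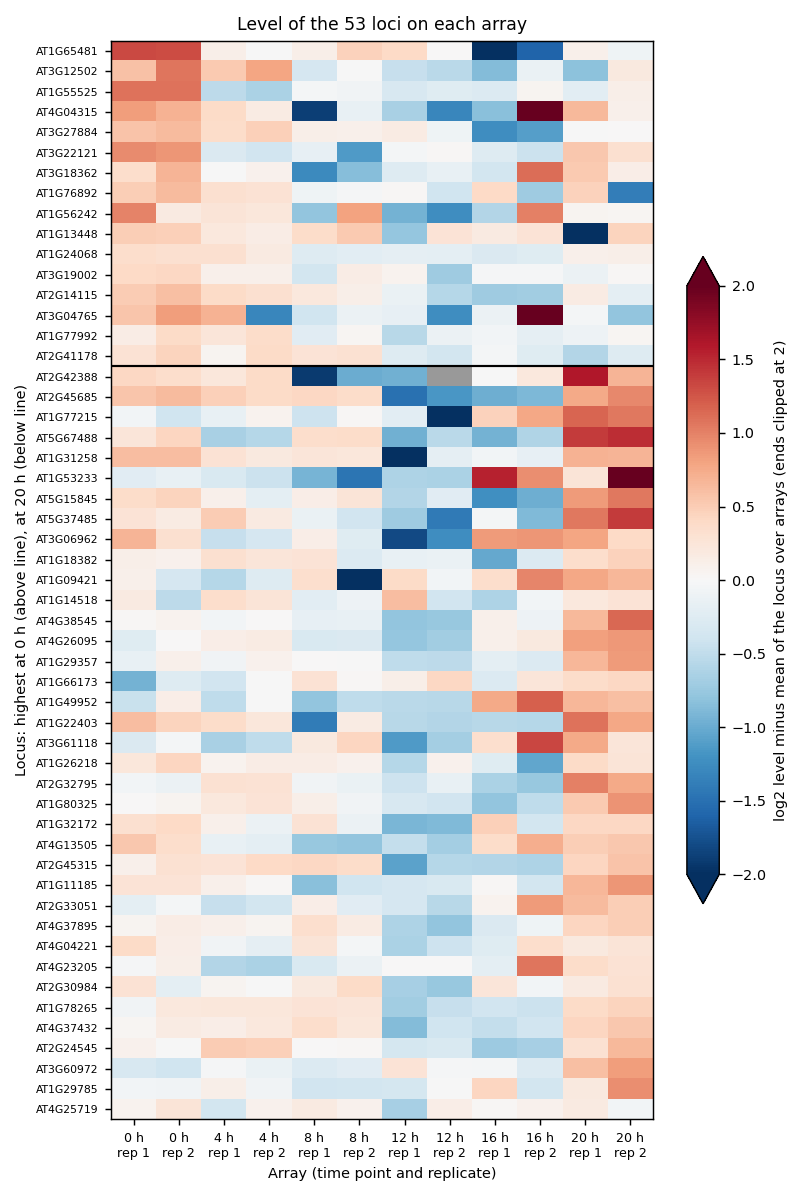
Level of each of the 53 loci (rows) on each of the 12 arrays (columns), as log2 scaled signal minus the mean of the locus over the arrays, in red where higher and in blue where lower, with colours clipped at 2 and the 1 outlier spot in grey. The 16 loci above the line had their highest deposited mean at 0 h and the 37 below it at 20 h; the blue blocks lie mostly in the 12 h and 16 h columns.

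By the deposited values 37 loci had their highest mean at 20 h and 16 at 0 h. The lowest mean was at 16 h for 26 loci, at 12 h for 12, at 8 h for 10, at 4 h for 3, and at 0 h and 20 h for 1 each. Ranges ran from 1.01 to 3.41 log2 units with a median of 1.44; 12 loci spanned 2 or more, 11 spanned 1.5 to 2, and 30 spanned less than 1.5. All values from here on, unless they are called deposited, are the scanner's processed signal on the log2 scale, minus the 75th percentile of the array, taken over those probes that exceeded background throughout the 12 arrays, so 0 marks that percentile. These levels show the course of each locus but do not rank loci, since probes differ in brightness. On this scale 42 of the 53 had their highest mean at 0 h or 20 h and 11 at another time (7 at 16 h, 3 at 4 h and 1 at 8 h), the lowest mean was at 12 h for 22 loci and at 16 h for 13, and the range had a median of 1.36 with 41 loci at 1 or more.

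The most frequent low point differed between both scales. Without the second 16 h array, a setting chosen after seeing the data, the lowest deposited mean was at 12 h for 21 loci and at 16 h for 12, and on the scaled signal at 12 h for 23 and at 16 h for 12. Over the 53 loci that array minus the first 16 h array had a median of -0.26 by the deposited values and 0.09 by the scaled signal, and over all 3233 transcripts tested it had -0.54 and 0.44. Without the second 16 h array 43 loci met the rule, 41 of them among the 53; without both 16 h arrays 44 did, 39 of them among the 53. The 12 loci that no longer met it without the second 16 h array were AT1G53233, AT3G06962, AT1G76892, AT1G49952, AT1G24068, AT1G26218, AT3G19002, AT1G77992, AT4G04221, AT2G41178, AT2G30984 and AT4G25719.

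**Figure D2:**
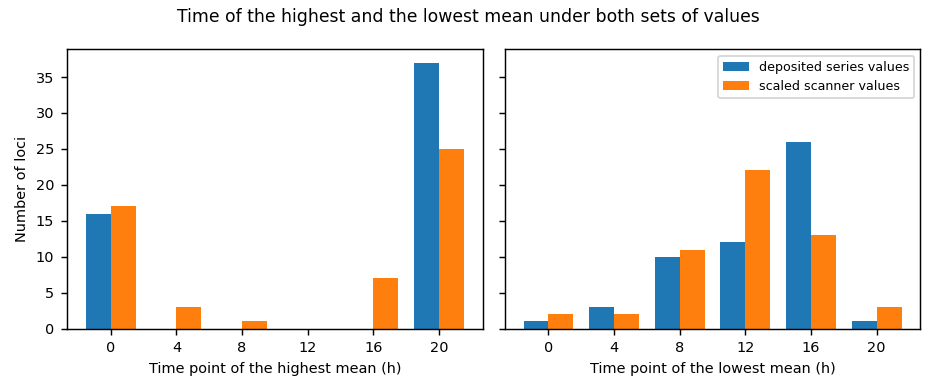
Number of the 53 loci (vertical axis) whose highest mean (left) or lowest mean (right) fell at each time point (horizontal axis, h), from the deposited series values in blue and from the scaled scanner signal in orange. The deposited values place all highest means at 0 h or 20 h, as the rule requires; the scanner signal places 42 there and moves the most frequent low point from 16 h to 12 h.

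One course among the 53 was a low level at 12 h and 16 h with higher levels before and after. In 18 loci both the 12 h and the 16 h mean were below the other 4 means. By the deposited values 15 of them were highest at 20 h and 3 at 0 h. That is 34.0% of the 53, against 7.33% of all transcripts tested, a comparison on which the selection bears, since it requires a high point outside these hours. These loci were AT2G45685, AT5G67488, AT1G31258, AT3G12502, AT5G15845, AT5G37485, AT1G18382, AT1G29357, AT1G26218, AT2G32795, AT1G80325, AT2G45315, AT4G37895, AT2G14115, AT1G77992, AT1G78265, AT4G37432 and AT2G24545, of which the last 5 have narrower ranges than the 40 widest and are named after their values were seen.

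AT2G45685 overlaps TCP9, which encodes a transcription factor of the TCP family of growth regulators. Its level was -2.04 and -1.97 for 0 h, -2.12 and -2.21 for 4 h, -2.18 and -2.24 for 8 h, -4.10 and -3.77 for 12 h, -3.57 and -3.50 for 16 h, and -1.85 and -1.64 for 20 h. The 4 arrays of 12 h and 16 h lay below the other 8 without overlap, and both 20 h arrays lay above all others. The mean went from -2.21 at 8 h to -3.93 at 12 h. AT2G45685 was among the 13 loci that met the rule under all 5 scalings and probe summaries tried, and it also met the rule with any single array left out.

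AT5G67488 overlaps AT5G67490, a protein-coding gene with no symbol in the gene table. Its level was -0.79 and -0.61 for 0 h, -1.68 and -1.61 for 4 h, -0.68 and -0.67 for 8 h, -1.99 and -1.58 for 12 h, -1.99 and -1.63 for 16 h, and 0.36 and 0.44 for 20 h. It had low points at 4 h and again at 12 and 16 h, and its 20 h arrays, at 0.36 and 0.44, stood above the other 10, whose highest was -0.61.

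AT1G31258 lies between genes, next to the zinc transporter gene ZIP10, and has 1 probe on the array. Its level was 3.0 and 2.99 for 0 h, 2.67 and 2.58 for 4 h, 2.62 and 2.60 for 8 h, -0.78 and 2.20 for 12 h, 2.33 and 2.21 for 16 h, and 3.08 and 3.05 for 20 h. The 12 h arrays disagreed by 2.98, and all other arrays lay between 2.21 and 3.08. Without the first 12 h array the locus no longer met the rule, so its wide range rests on that array.

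AT5G15845 overlaps COL1, a B-box gene related to the photoperiod regulator CO, and reaches the edge of CO itself in the gene table. Its level was -0.17 and -0.09 for 0 h, -0.43 and -0.74 for 4 h, -0.39 and -0.27 for 8 h, -1.12 and -0.76 for 12 h, -1.76 and -1.52 for 16 h, and 0.33 and 0.52 for 20 h. The 20 h arrays were the 2 highest and the 16 h arrays the 2 lowest. Its other 2 probes were also highest at 20 h, with r of 0.84 and 0.98 to the probe used.

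AT5G37485, which overlaps no annotated gene, had mean levels of -1.95, -2.75 and -2.15 for 8, 12 and 16 h and one of -0.46 for 20 h, with the 20 h arrays clear of the other 10. Its other 2 probes were highest at 20 h as well (r of 0.96 and 0.91). AT1G18382, within the protein-coding AT1G18390, was measured at -3.44 and -3.47 for 0 h, -3.23 and -3.31 for 4 h, -3.28 and -3.82 for 8 h, -3.69 and -3.69 for 12 h, -4.57 and -3.83 for 16 h, and -3.20 and -3.09 for 20 h. Its 20 h arrays were the highest by a small margin, and its range of 2.08 in the deposited values came down to 1.05 on the scaled signal. Of its other 2 probes 1 was highest at 8 h.

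AT3G12502, a locus highest at 0 h, overlaps HCHIB, which encodes a basic chitinase of pathogen defence. Its level was -3.42 and -2.94 for 0 h, -3.47 and -3.22 for 4 h, -4.33 and -4.00 for 8 h, -4.46 and -4.53 for 12 h, -4.87 and -4.13 for 16 h, and -4.82 and -3.81 for 20 h. The 0 h and 4 h arrays overlapped each other and lay above all 8 later arrays, the highest of which was at -3.81. The 4 arrays of slide 1 were thus the 4 highest for this locus, and time and slide cannot be told apart there.

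Other loci of this course are given more briefly. AT1G29357, which overlaps AT1G29355, stayed well above the array percentile on every array, at 3.03 and 3.28 for 0 h, 3.11 and 3.26 for 4 h, 3.18 and 3.16 for 8 h, 2.68 and 2.66 for 12 h, 2.98 and 2.91 for 16 h, and 3.85 and 4.04 for 20 h. Its 20 h arrays, at 3.85 and 4.04, were clear of the others, which reached 3.28. AT2G45315, overlapping GAE4 of pectin precursor synthesis, had a mean of 2.67 at 8 h, means of 1.46 and 1.68 for 12 and 16 h, and one of 2.78 for 20 h. Its other probes, each well above background on all 12 arrays, were highest at 8 h or 4 h on both scales and none at 20 h. They had r of 0.86 to 0.96 to the probe used. AT4G37895, overlapping EDA40, went from -2.31 to -3.26 at 12 h and -2.10 at 20 h. AT1G80325, which overlaps the molybdate transporter gene MOT2, had -0.72 at 16 h and 0.64 at 20 h. AT2G32795, between genes, had 1.04 and 2.62 at these times. AT1G26218 overlaps AT1G26208, the only overlapped gene with a probe on this array and itself a long non-coding RNA. AT1G26218 had its lowest mean at 16 h (-1.81) and -0.84 and -0.85 at 0 h and 20 h, while AT1G26208 went from 0.40 at 4 h to 1.40 at 20 h, so the pair shared the high 20 h level but not the low point.

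**Figure D3:**
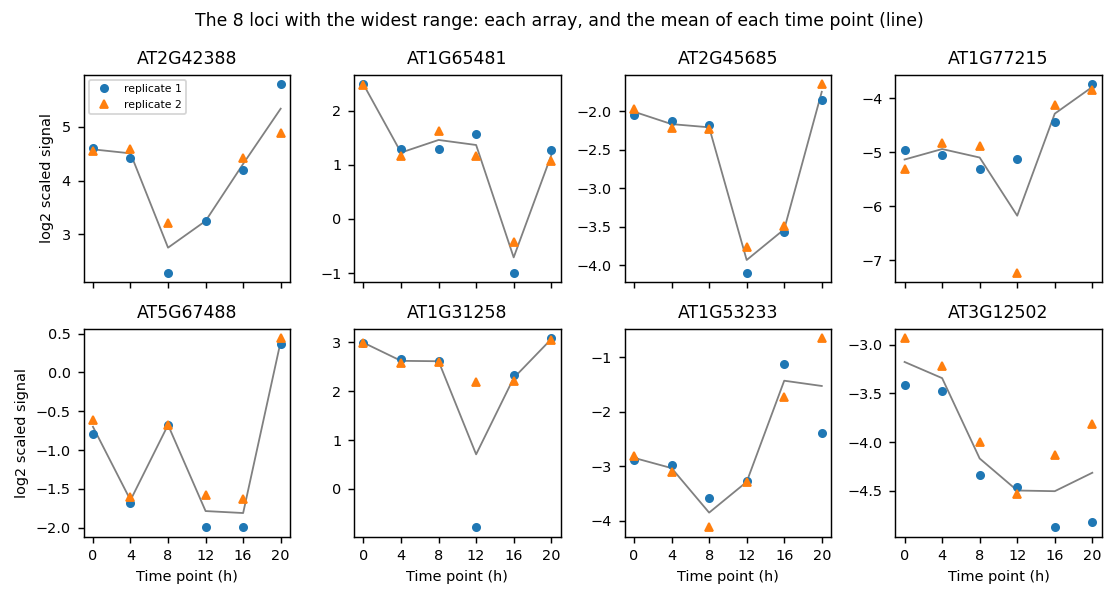
Level of the 8 loci with the widest deposited range on each array (points, replicate 1 as circles and replicate 2 as triangles) and the mean of each time point (line), as log2 scaled signal against time in h; vertical axes differ between panels. AT2G45685 and AT5G67488 had both 12 h and both 16 h arrays below the 0, 8 and 20 h arrays, whereas the 12 h arrays of AT1G31258 and AT1G77215 lay 2.98 and 2.11 apart.

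Another course was a level that was already high at 16 h. In 11 loci the 16 h and the 20 h mean were both above the other 4: AT1G77215, AT1G53233, AT3G06962, AT1G09421, AT4G26095, AT1G49952, AT3G61118, AT4G13505, AT2G33051, AT4G23205 and AT1G29785. Of these AT4G23205 and AT1G29785 have ranges outside the 40 widest. All 11 were highest at 20 h by the deposited values, but on the scaled signal AT1G53233, AT3G06962, AT1G49952, AT3G61118, AT4G13505 and AT4G23205 were highest at 16 h. The second 16 h array bears on these 11 loci directly.

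AT1G53233 overlaps TCP3, a TCP factor of leaf shape. Its level was -2.88 and -2.81 for 0 h, -2.97 and -3.10 for 4 h, -3.58 and -4.12 for 8 h, -3.28 and -3.29 for 12 h, -1.13 and -1.73 for 16 h, and -2.40 and -0.65 for 20 h. The 16 h arrays were both above every array of 0 to 12 h, and the 20 h arrays disagreed by 1.74. AT1G77215, a code absent from the gene table, was dim, with -4.96 and -5.31 for 0 h, -5.05 and -4.83 for 4 h, -5.32 and -4.88 for 8 h, -5.12 and -7.23 for 12 h, -4.45 and -4.12 for 16 h, and -3.74 and -3.85 for 20 h. Its 20 h arrays were the 2 highest, and its low point rests on the second 12 h array, at -7.23, which was 2.11 below the first.

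AT4G13505 overlaps AMT1;1, a high-affinity ammonium transporter gene, and went from -2.56 at 8 h and -2.36 at 12 h to -1.25 at 16 h and -1.27 at 20 h. AT3G06962, between genes, went from -5.81 at 12 h to -3.42 at 16 h and -3.69 at 20 h. AT4G26095 overlaps RPS2, which encodes an immune receptor of the nucleotide-binding class. It had -0.45 at 12 h, 0.44 at 16 h and 1.14 at 20 h. Its other 2 probes, although well above background, were highest at 16 h and had r of only 0.18 and 0.08 to the probe used. AT1G09421, inside G6PD4 of the oxidative pentose phosphate pathway, had means of -2.45 and -2.39 at 16 and 20 h, but its 8 h arrays were 2.71 apart. AT3G61118, next to the MADS-box gene AGL13, had -4.95 at 12 h, -3.21 at 16 h and -3.54 at 20 h. AT2G33051, over the receptor-like protein gene RLP26, had -3.58 and -3.48 at the last 2 time points.

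AT1G49952 and AT4G23205 had 2 of the 4 weakest probe signals of the 53. AT1G49952, beside the telomere-repeat binding gene TRB1, was measured at -5.82 and -5.24 for 0 h, -5.88 and -5.38 for 4 h, -6.17 and -5.89 for 8 h, -5.92 and -5.93 for 12 h, -4.61 and -4.18 for 16 h, and -4.71 and -4.78 for 20 h. The 16 h and 20 h arrays were the 4 highest; 9 of its 12 arrays were well above background. AT4G23205, between the receptor kinase genes CRK11 and CRK12, was measured at -5.57 and -5.43 for 0 h, -6.13 and -6.19 for 4 h, -5.85 and -5.67 for 8 h, -5.55 and -5.55 for 12 h, -5.75 and -4.48 for 16 h, and -5.18 and -5.26 for 20 h. Only its second 16 h array, at -4.48, stood clear of the rest, and neither of its other 2 probes was well above background at 20 h. AT1G29785, over AT1G29775 and AT1G29780, had one of the 4 strongest probe signals, at 3.17 and 3.14 for 0 h, 3.33 and 3.16 for 4 h, 2.84 and 2.86 for 8 h, 2.86 and 3.21 for 12 h, 3.65 and 2.85 for 16 h, and 3.41 and 4.15 for 20 h. Its second 20 h array, at 4.15, was the highest and its first, at 3.41, lay below the first 16 h array.

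Other loci highest at 20 h kept neither course. AT2G42388, beside the bZIP gene BZIP34, had the widest deposited range (3.41) and the strongest probe signal of the 53 at its highest time point. Its level was 4.61 and 4.55 for 0 h, 4.42 and 4.59 for 4 h, 2.28 and 3.21 for 8 h, 3.25 on 1 array for 12 h, 4.20 and 4.42 for 16 h, and 5.80 and 4.88 for 20 h. The scanner marked the second 12 h spot as an outlier, and it was not used here, although the deposited values hold a low number for it. The 20 h arrays were the 2 highest and the 8 h arrays the 2 lowest. Its other 2 probes gave a different course, highest at 16 h with r of 0.15 and 0.19.

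AT4G38545, which overlaps AT4G38540, was steady between 1.65 and 1.85 outside 12 h (1.04) and 20 h (2.71), and all 5 of its other probes were highest at 20 h. AT1G22403, next to UGT85A1, was low on all 4 arrays of 12 and 16 h, from 0.21 to 0.25, and had a mean of 1.73 at 20 h. Its 8 h arrays disagreed, at -0.60 and 0.97, and the second was near the 4 h level, so its 8 h mean rests on the first. AT1G11185, next to the nuclease gene BFN1, had means between 0.22 and 0.67 from 8 h to 16 h and 1.62 at 20 h. AT1G32172, next to the cell wall gene XTH30, had its low point at 12 h (-5.20) and -3.88 at 20 h. AT1G66173 was lowest at 0 h (-5.61) and AT1G14518, next to MIOX1, spanned only 0.64 on the scaled signal; neither had another probe well above background at 20 h. AT2G30984, over AT2G30985 and outside the 40 widest, was highest at 8 h on the scaled signal (-4.29, with -4.34 at 20 h). AT4G25719, over the glutaminyl cyclase gene QC and the locus nearest to the limit, was measured at -4.81 and -4.62 for 0 h, -5.24 and -4.79 for 4 h, -4.71 and -4.80 for 8 h, -5.54 and -4.75 for 12 h, -4.85 and -4.79 for 16 h, and -4.71 and -4.94 for 20 h. Its 20 h arrays lay among the others, and on the scaled signal its range was 0.43 with the highest mean at 0 h.

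Among the 16 loci highest at 0 h, the course after 0 h differed. Over these loci 0 h minus 4 h had a median of 0.30, from -0.04 to 1.67, and was above 0 in 15 of 16. Their choice by a highest deposited mean at 0 h nearly sets that sign, so only the size of the difference is described. AT1G65481 had the widest range on the scaled signal of all 53, 3.19 log2 units or 9.14-fold. The gene table lists it as protein-coding, against the non-coding label of the group. Its level was 2.49 and 2.47 for 0 h, 1.29 and 1.16 for 4 h, 1.29 and 1.63 for 8 h, 1.56 and 1.17 for 12 h, -0.99 and -0.43 for 16 h, and 1.27 and 1.08 for 20 h. The 0 h arrays, at 2.49 and 2.47, stood above the other 10 arrays, and the 16 h arrays, at -0.99 and -0.43, stood below them. Its other 2 probes had the same high point, with r of 0.96 and 0.92.

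AT1G55525, next to the TATA-binding protein gene TBP2, had a high 0 h point and a low remainder, with a mean of -2.19 at 0 h against -3.85 to -3.32 at the other 5 time points. AT3G22121 overlaps CWLP, a cell wall-plasma membrane linker protein gene, and had one of the 4 strongest probe signals, at 4.03 and 3.96 for 0 h, 2.78 and 2.70 for 4 h, 2.91 and 1.94 for 8 h, 3.04 and 3.10 for 12 h, 2.82 and 2.64 for 16 h, and 3.61 and 3.39 for 20 h. Its 0 h arrays were the 2 highest and its 20 h arrays the next. AT3G27884, among pseudogenes, held between 0.37 and 0.98 at 5 time points and was at -0.81 at 16 h.

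AT1G76892 and AT1G13448 overlap GT2 and GT-1, which encode trihelix factors that bind light-responsive promoter elements. AT1G76892 was at -2.68 at 0 h and at -2.78 and -4.62 on the arrays of 20 h, so its lowest mean, -3.70, rests on the second of them; its 16 h arrays, at -2.84 and -3.95, were also apart, and the first array of each pair lay near the 0 h level. For AT1G13448 the first 20 h array, at -3.36, was 3.06 below the second, and without it the locus no longer met the rule. AT4G04315, AT3G18362 and AT3G19002 were dim, from -5.40 to -3.62, from -4.89 to -3.32 and from -5.14 to -4.41, and no other probe of theirs was well above background at 0 h. AT1G24068, next to the cellulose synthase-like gene CSLA10, spanned 0.61 with replicates at most 0.13 apart. Its other probes, well above background on all 12 arrays, were highest at 4 h and 8 h by the deposited values. They had r of only 0.05 and -0.07 to the probe used. AT1G56242, over the phloem lectin-like gene PP2-B13, had the weakest probe signal, at -5.14 and -5.95 for 0 h, -5.87 and -5.90 for 4 h, -6.92 and -5.33 for 8 h, -7.07 and -7.38 for 12 h, -6.72 and -5.13 for 16 h, and -6.08 and -6.09 for 20 h. It was well above background on 6 of 12 arrays and on neither array at 12 h and 20 h. The 0 h mean was therefore at least 1.70-fold brighter than 12 h and at least 1.29-fold brighter than 20 h. The second 0 h array, at -5.95, lay below the level of -5.91 used for the 20 h bound, so that bound rests on the first. Without the first 0 h array the locus no longer met the rule. The 1 microRNA gene, MIR167c (AT3G04765), whose family targets auxin response factors, is named after its values were seen: its mean was -3.59 at 0 h and -3.29 at 16 h, and its replicates differed by up to 2.21.

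How far the high point stood out from single arrays was counted without a test. In 28 loci both arrays of the time point with the highest deposited mean lay above all other 10 arrays, 20 of them at 20 h and 8 at 0 h. The same held for 28.7% of all transcripts tested. The rule used this contrast, and nothing is read from the count. For the 37 loci highest at 20 h, 20 h minus 12 h had a median of 1.16 (0.12 to 2.38) and was above 0 in 37 of 37. In the same loci 20 h minus 16 h had a median of 0.80 (-0.34 to 2.21) and was above 0 in 30. The rule chose these loci for a highest deposited mean at 20 h, which nearly sets the sign of both differences. Nothing is read from how many were above 0.

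Whether the loci differed between 20 h and 0 h asks if the 2 time points that the rule treats alike had the same level. The sign of that difference was not fixed by the rule for the group as a whole, but the time of a locus's highest deposited mean nearly fixes its sign, so the calls describe the size of each difference and do not support the choice of loci. In limma's fit over all 3233 transcripts, 6 of the 53 passed a Benjamini-Hochberg adjusted p of 0.05, 4 higher and 2 lower at 20 h, where 3.59% of all transcripts passed, 0.959% higher and 2.63% lower. None of the 53 passed in limma with the deposited values that define the group (17 at an unadjusted p under 0.05), with the percentile taken over all probes (8) or without the filter on dim probes (16). Over the 53, 34 were higher and 19 lower at 20 h with a median difference of 0.29 log2 units, against a median of -0.20 over all transcripts, of which 37.9% were higher at 20 h. The 0 h arrays lay on slide 1 and the 20 h arrays on slide 2, so time and slide cannot be told apart in this difference.

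AT5G67488 was higher at 20 h by 1.1 ± 0.22 (SE, limma adjusted p = 0.039, n = 2 arrays each), from -0.70 to 0.40. AT4G26095 over RPS2 was higher by 0.96 ± 0.18 (limma adjusted p = 0.031). AT2G32795 was higher by 0.97 ± 0.19 (limma adjusted p = 0.039), but with normexp background correction and quantile normalization its difference turned to -0.39. AT3G60972, next to the transporter gene ABCC15 and named because it passed, was higher by 1.08 ± 0.21 (limma adjusted p = 0.031), and its means from 0 h to 16 h lay between 1.09 and 1.58 with 2.17 at 20 h. By the deposited values AT3G60972 was lowest at 0 h, so the range of 1.07 that met the rule was this same difference. Its p-value therefore tests the contrast that chose the locus, and nothing is read from it. In the other direction, AT1G65481 fell by 1.31 ± 0.26 (limma adjusted p = 0.039) and AT1G55525 fell by 1.14 ± 0.21 (limma adjusted p = 0.027) from 0 h to 20 h. In each of the 6 loci the arrays of the 2 time points did not overlap. For the loci other than AT3G60972 the rule used the higher of these 2 means as the highest. Their p-values are thus not independent of the choice either and only describe the size of the difference. With any single array of 0, 4 or 8 h left out, 0 of the 53 passed (11 to 18 did at an unadjusted p under 0.05 in limma), and with either 20 h array left out 1 passed.

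**Figure D4:**
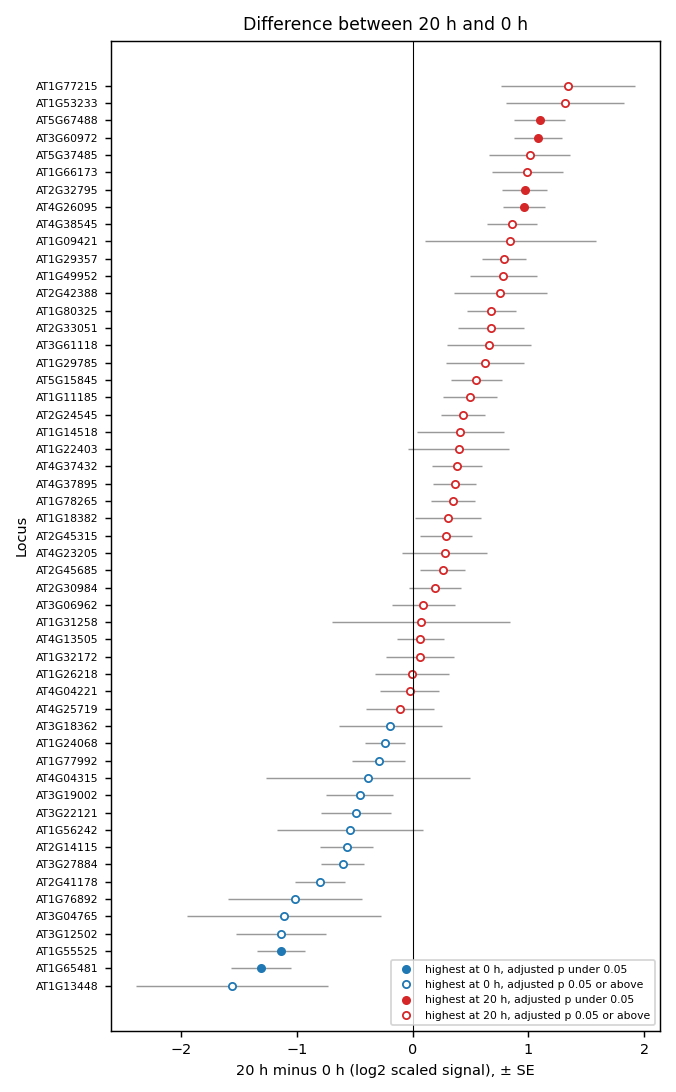
Difference between 20 h and 0 h in log2 scaled signal (horizontal axis) for each of the 53 loci (vertical axis), with its standard error from limma (n = 2 arrays per time point); red for loci highest at 20 h and blue for loci highest at 0 h by the deposited values, filled where the adjusted p was under 0.05. The 6 filled points lie at -1.31 and -1.14 and from 0.96 to 1.1.

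A further comparison was made among 8, 12 and 16 h, time points at which none of them could be highest by the rule and whose arrays all lie on slide 2. The rule used these time points through the lowest mean, which lay at one of them for 48 of the 53 by the deposited values, so the differences are a description. In limma's F test over these 3 time points, fitted with all 12 arrays, 13 of the 53 and 10.6% of all transcripts passed an adjusted p of 0.05, and in a fit of the slide 2 arrays alone 5 of 52 and 4.43% did. With the first 16 h array left out 20 of the 53 and 46.1% of all transcripts passed, and with the second left out 10 and 6.79%. Nothing is read from these counts about the loci.

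Among the 13, AT2G45685 over TCP9 had a 12 h minus 8 h difference of -1.73 ± 0.20 (SE, n = 2 arrays each), AT1G65481 a 16 h minus 12 h difference of -2.07 ± 0.26 and AT3G27884 one of -1.21 ± 0.19. These 3 stayed among those passing under all 21 alternatives. Each had its lowest deposited mean at 16 h, which the rule used, and the alternatives share the same arrays. Staying among those passing therefore does not support the choice of these loci. AT3G06962 had -1.47 from 8 to 12 h and 2.39 from 12 to 16 h, and it was lost in 3 of 20, among them the deposited values. AT4G13505 over AMT1;1 had 1.12 from 12 to 16 h and was lost in 5 of 21 alternatives. AT1G49952 had 1.53 over that step and was lost in 7 of 20. AT5G15845 over COL1 had -0.61 from 8 to 12 h and -0.70 from 12 to 16 h, AT2G45315 over GAE4 had -1.21 from 8 to 12 h, and AT5G67488 had -1.11 over the same step; each of these was lost in 9 of 21. AT4G37895, AT3G61118, AT1G53233 and AT4G26095 were lost in 18, 17, 16 and 16 of 21. An F test over all 6 time points passed 23 of the 53 and 13.9% of all transcripts; the rule used that contrast and nothing is read from it.

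The other probes of the same loci gave a further measure of the course. Of the 53 loci 51 had 123 other probes in all, 98 of them, from 42 loci, well above background at the time point of the highest mean. By the deposited values, 77 of these 98 spanned 1 log2 unit or more. Of the 98, 69 were highest at 0 h or 20 h and 64 at the same time point as the probe used. A range of 1 or more together with a highest mean at 0 h or 20 h held for 54. On the scaled signal the 98 correlated with the probe used over the 12 arrays with a median r of 0.82 (-0.07 to 0.98). In 15 loci all other probes were well above background there, spanned 1 or more and were highest at the same time point as the probe used. In 9 loci no other probe was well above background at the time point of the highest mean. Probes of a locus share its arrays and RNA and are not replicates.

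Of the 53 loci 52 are listed in the TAIR10.1 gene table, 31 as lncRNA, 19 as ncRNA, 1 as miRNA and 1 as protein-coding. They lie on chromosome 1 in 23 cases, on chromosomes 2, 3 and 4 in 9 each and on chromosome 5 in 3, where the 306 loci have 93, 60, 60, 45 and 48. Of the 52, 31 (59.6%) overlap a protein-coding gene. The share was 66.7% among loci highest at 4 or 8 h, 54.9% among those highest at 12 or 16 h, 64.8% among loci with a range under 1 and 60.8% among all 301 loci in the table; the difference between these shares was not tested. The table gives no strand, so whether the loci are antisense to these genes was not settled. Beside the genes named above, the overlapped genes include DRP3B (AT2G14115), which encodes a dynamin-related protein of organelle division, the sulfate transporter gene AST56 (AT1G77992), AFR (AT2G24545), an F-box gene of far-red light signalling, SIB2 (AT2G41178), a sigma factor binding protein gene, and RLP46 (AT4G04221). These loci are outside the 40 widest and are named for the genes they overlap. Apart from AT1G26208, none of the overlapped genes has a probe on this array, so their levels were not measured beside those of the loci.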

How the data were processed

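Leaf RNA of 12 samples (0.5 µg each, per the labels' protocols) was hybridised to 12 single-colour arrays. Quantification was done with Agilent Feature Extraction 10.5.1.1, per the file headers. In the deposited scanner files each spot's intensity is on a linear scale, background-corrected in the processed signal. A deposited table of log2 values for the same 15013 probes has a common median of 1.37 per array; how it was made is not stated in the sources used here, so its centring is known only from that median. No adjustment between arrays is recorded in the headers.

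As level, the 75th percentile of an array (over 2876 probes that exceeded background throughout) was subtracted from the log2 processed signal. Control spots (536) and outlier spots were left out, and 0 spots were saturated. The unit was 1 probe per locus or transcript name, that with the highest mean deposited value (5080 units), and 3233 units were tested, those that exceeded background clearly on both arrays of any time point. The tests used limma 3.58.1 (R 4.3.3; lmFit, then eBayes, 1 mean per time point, all 12 arrays), with Benjamini-Hochberg adjusted p-values over all units and a threshold of 0.05; the procedure was tested on simulated data. A probe not well above background on both arrays of a group gave a bound: the bright mean over the mean of the higher of its own signal and the array's lowest well-above-background signal. Depth as in read counts does not exist here, and the number of arrays limits the precision.

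The loci, gene lists and tests were chosen with earlier results of these data known. Named were the 40 loci with the widest deposited range; values on every array were given for the 8 widest, the 4 highest and 4 lowest in level at the highest time point, and 6 that overlap another gene, and others are marked where they appear. Whether the replicate numbers in the labels pair samples was not settled. Deviations of same-numbered samples correlated with r over 0.1 in 7 of 15 pairs of time points (-0.04 to 0.30). The arrays' headers name an older build than the TAIR10.1 gene table, which was used only for names and for which genes overlap or adjoin; 301 of 306 loci matched. Promoter and RNA sequences were not analysed here. The alternatives tried were other scalings, background correction, probe summaries and filters, array weights, a replicate block, and leaving out arrays. A slide block could not be fitted.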

Additional observations from a re-analysis of the deposited data

How the results depend on the processing

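The number of loci that meet the rule was 53 with the deposited values, 40 with the scaled scanner signal (33 of the 53 among them; chosen after seeing the data), 104 with the percentile taken over all probes (50 of the 53), 27 with normexp and quantile normalization (18) and 31 with the mean over all probes of a locus (23); with single arrays left out it was 43 to 59. Under all 5 of these 13 loci met it, and 28 of the 53 met it in all 12 settings with 1 array left out. The 20 h minus 0 h calls, 6 in the text, were 0 with the percentile over all probes (8 at an unadjusted p under 0.05 in limma), 0 with the deposited values (17), 0 without a filter on dim probes (16), 3 with the mean over probes (1.33% of all units), 12 of 47 over units well above background on all arrays (14.1% of all units), 15 with normexp and quantile normalization (10 higher and 5 lower at 20 h; 7.64% of all units), and 0 to 7 with 1 array left out. Another scaling moved the median of all units in this difference from -0.20 to -0.02 (percentile over all probes), -0.06 (deposited values) or -0.01 (normexp and quantile), and that of the 53 from 0.29 to 0.47, 0.41 or 0.16. AT2G32795 turned to -0.39 with normexp and quantile normalization; the cause was not tested. The calls among 8, 12 and 16 h, 13 in the text, were 5 with the percentile over all probes (9.9% of all units), 4 without the filter (2.54%), 20 of 47 over units well above background on all arrays (33.0%), 6 with array weights (3.99%), 5 of 52 in a fit of slide 2 alone (fewer arrays; 4.43%), and 5 to 20 with 1 array left out; 20 was reached without the first 16 h array, when 16 h rests on the array that stood apart and 46.1% of all units passed. Over the 6 time points, 23 calls (13.9% of all units) became 6 with the percentile over all probes (10.9%), 15 with the deposited values (11.2%) and 6 without the filter (3.58%). Elsewhere the cause of these changes was not tested.

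With the replicate number as a block, the 20 h minus 0 h calls were 4 (3.31% of all units). Those among 8, 12 and 16 h were 11 (10.8%) and those over 6 time points 19 (12.8%). Whether the numbers pair the samples was not settled, so nothing is read from this block fit. The slide as a random block could not be fitted, because each time point lies on 1 slide. Without both 16 h arrays, a setting chosen after seeing the data, 8 loci passed in 20 h minus 0 h (7.96% of all units). Over the remaining 5 time points 25 passed (17% of all units). Dim probes limit the reading of 6 of the 53 loci, which were not well above background on every array.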
